A study of Homo sapiens with 12 samples.

Results

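The MYC, MAX and MXD network was followed through 9 genes, taken by their Ensembl identifiers from a gene expression array of MM.1S cells. They were the activators MYC (ENSG00000136997_at) and MYCN (ENSG00000134323_at), the shared partner MAX (ENSG00000125952_at), the related partner MLX (ENSG00000108788_at), and the repressors MXD1 (ENSG00000059728_at), MXI1 (ENSG00000119950_at), MXD3 (ENSG00000213347_at), MXD4 (ENSG00000123933_at) and MNT (ENSG00000070444_at). All 9 were among the 17710 gene features on the array, and no filter on low values was applied, so all 9 were tested. MM.1S is an established human multiple myeloma line, a cancer of antibody-secreting plasma cells, and every group was the same line kept in RPMI-1640 with inactivated serum. Control cells were untreated. PIM cells received 100 nM PIM447, a pan-PIM kinase inhibitor, for 24 h. Pd cells received 200 nM pomalidomide, a cereblon-binding immunomodulatory drug, and 5 nM dexamethasone, a synthetic glucocorticoid, for 15 h. PIM-Pd cells received all 3 drugs at these same doses for 10 h. Each group held 3 arrays, 1 from each of 3 independent experiments, and the labels number the arrays as pairs across groups.

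The exposure times differed between all treated groups and the labels give no time for the control cells, so drug and time cannot be told apart in any comparison. The treatments were sub-lethal, with a viability of 74 to 81%, and 1 cell line cannot stand for myeloma in general. Values are log2 expression after robust multi-array averaging (RMA), which gives all arrays nearly the same distribution: array medians ranged from 4.81 to 4.89 and correlations between arrays from 0.977 to 0.993. A value is therefore relative to the other genes of its array, and fewer living cells and less RNA per cell cannot be told apart. Each value summarizes all probes of a gene, so the isoforms of MAX and of MXI1 were not separated. Gene symbols were at hand only for features that the study called changed, so an unmatched marker is not an absent one. Through these symbols, 3 of the 8 plasma cell markers listed for this work were matched, with 1 of 3 T cell markers. None of the mature B cell, monocyte, erythroid or fibroblast markers was matched. The cell type was therefore not checked against its markers.

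MYC is a basic helix-loop-helix leucine zipper transcription factor that binds DNA as a dimer with MAX and activates genes of ribosome production, metabolism and cell cycle entry. The MXD proteins (MXI1 belongs to them) and MNT also pair with MAX at the same DNA motif, the E-box, but recruit SIN3 corepressors with histone deacetylases and repress. MLX is a relative of MAX that pairs with the glucose-sensing MondoA proteins and with some of the MXD proteins and MNT. In multiple myeloma, MYC is a frequently activated oncogene, and in many cell types MXD genes are known for their expression during cell cycle exit and differentiation.

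The network's own DNA motif stood near the start of some of its genes. These sequences are shown because the E-box is the motif shared by the MAX dimers of MYC, of the MXD proteins and of MNT. The RefSeq promoter tables (GRCh38.p14) hold windows of 300 bases, from 250 before to 50 after a transcription start. Windows of 8 of the 9 genes were searched, with more than 1 window for MAX and MXI1. The letters CACGTG, which read the same on both strands, occurred in 3 of these 11 windows and in 2548 of all 35116 windows, or 7.26%. The matches were in MXD4, MNT and MLX, where the first letter of CACGTG stood 238, 193 and 50 bases before the start. Each line gives the match in capitals with 10 bases on either side, and these stretches of 26 bases lie at chr4:2262332-2262357 (MXD4, minus strand), chr17:2401238-2401263 (MNT, minus strand) and chr17:42567040-42567065 (MLX, plus strand).
MXD4: gccgggccacCACGTGctgttgctaa
MNT: ctgcccgggcCACGTGtgcgcgcgcc
MLX: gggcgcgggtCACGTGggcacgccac
The windows of MYCN, MAX, MXD1, MXI1 and MXD3 held no such letters. MYC was left out of the search by its chromosome, so its promoter was not examined.

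**Figure D1:**
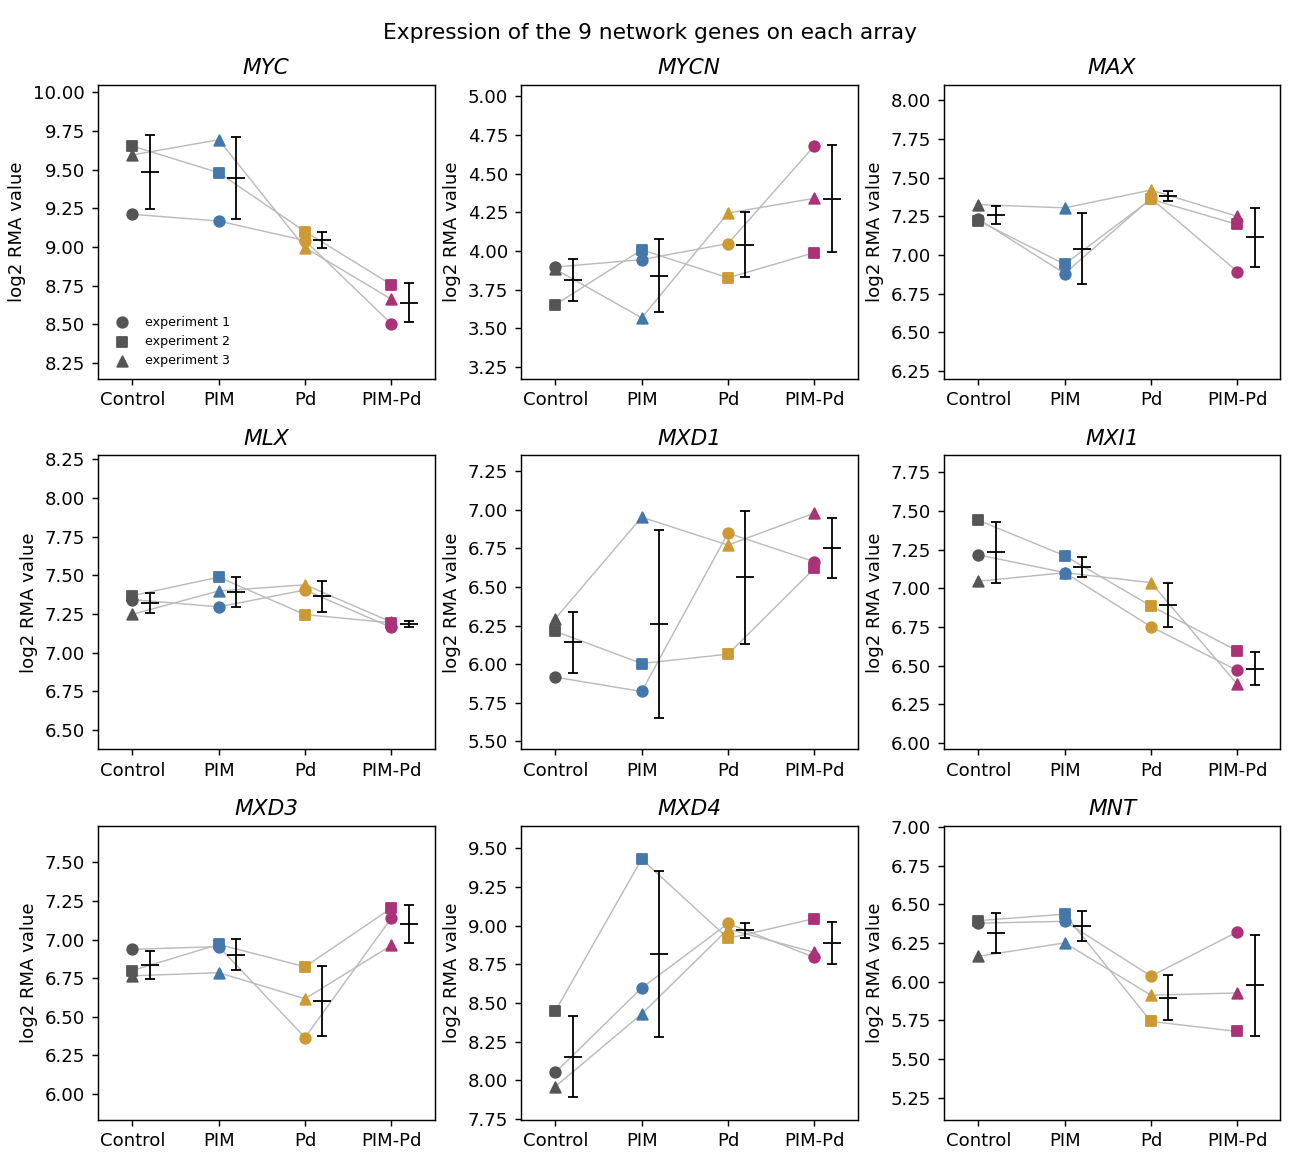
Log2 RMA value of each network gene on each of the 12 arrays by group (horizontal axis: Control, PIM, Pd, PIM-Pd). Grey lines join the arrays of 1 experiment, bars give the mean ± SD, and every panel spans the same log2 range. MYC and MXI1 are lowest in the 3 PIM-Pd arrays, and MXD4 is above the Control range in all Pd and PIM-Pd arrays.

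MYC fell with the triple combination and did not pass the test with either partial treatment. Its log2 values were 9.21, 9.65 and 9.59 in Control, 9.17, 9.48 and 9.69 with PIM, 9.04, 9.10 and 8.99 with Pd, and 8.50, 8.76 and 8.66 with PIM-Pd, in the order of experiments 1, 2 and 3. The PIM-Pd arrays lay below all others, the Pd arrays lay below the Control range, and the PIM arrays spread over that range. As compared to Control, the log2 change with PIM-Pd was -0.85 ± 0.15 (SE), a level 0.556 times that of untreated cells (95% confidence interval 0.447 to 0.692, limma adjusted p = 0.00204). The 3 experiments gave -0.71, -0.90 and -0.93. With Pd the change was -0.44 ± 0.15 (adjusted p = 0.109), negative in 3 of 3 experiments, and it passed the threshold when the experiment number was entered as a block (adjusted p = 0.0475). With PIM it was -0.04 ± 0.15 (adjusted p = 0.985), with an interval from -0.35 to 0.28.

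MYCN, the MYC relative best known from neuroblastoma, had log2 values of 3.90, 3.65 and 3.88 in Control, 3.94, 4.01 and 3.57 with PIM, 4.05, 3.83 and 4.25 with Pd, and 4.68, 3.99 and 4.34 with PIM-Pd. Its Control mean stood at the 30.5th percentile of all features. All PIM-Pd arrays lay above the Control range, by a margin that in experiment 2 was small. The change with PIM-Pd was 0.53 ± 0.17, a value that did not pass (adjusted p = 0.0753) but did without the PIM-Pd array of experiment 2 (adjusted p = 0.0208). That was the only 1 of the 12 fits with 1 array left out in which MYCN passed, and the adjusted p reached 0.286. Whether MYCN was detected above background was not assessed.

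MAX and MLX, the dimerization partners, did not pass the test in any comparison. MAX had log2 values of 7.23, 7.22 and 7.33 in Control, 6.88, 6.94 and 7.30 with PIM, 7.37, 7.36 and 7.42 with Pd, and 6.89, 7.20 and 7.25 with PIM-Pd. Its Pd arrays were just above the Control range, and those of the other treatments overlapped it or lay partly below. The MAX changes were -0.22 with PIM, 0.12 with Pd and -0.15 with PIM-Pd, each with an SE of 0.13, and the lowest adjusted p was 0.632. MLX had 7.34, 7.37 and 7.25 in Control, 7.30, 7.49 and 7.40 with PIM, 7.40, 7.25 and 7.44 with Pd, and 7.16, 7.19 and 7.20 with PIM-Pd. The 3 PIM-Pd arrays of MLX were close to each other and below the Control range, and the change was -0.14 ± 0.10 (adjusted p = 0.551). The 95% intervals with PIM-Pd ran from -0.42 to 0.13 for MAX and from -0.35 to 0.08 for MLX, so neither gene's interval reached the fall measured for MYC.

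**Figure D2:**
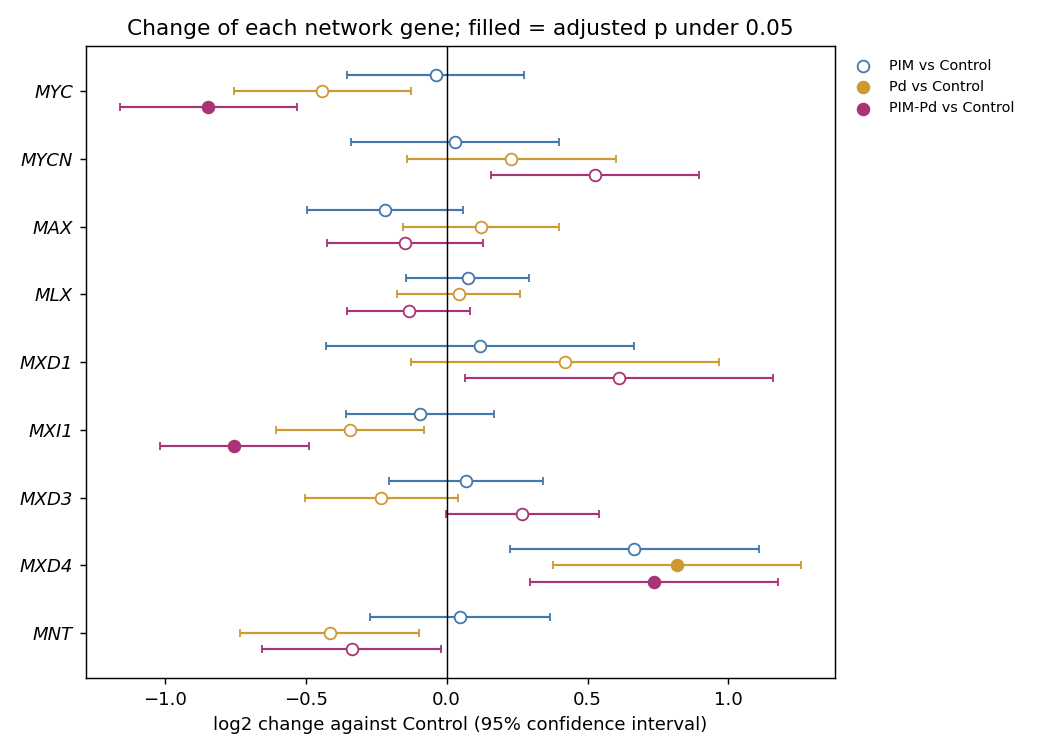
Log2 change of each network gene against Control (horizontal axis) with its 95% confidence interval, for PIM, Pd and PIM-Pd. Filled points passed an adjusted p under 0.05: MXD4 with Pd, and MYC, MXI1 and MXD4 with PIM-Pd.

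Among the repressors, MXI1 fell with PIM-Pd, as MYC did. MXI1, a MAX partner that antagonizes MYC, had log2 values of 7.22, 7.44 and 7.05 in Control, 7.10, 7.21 and 7.10 with PIM, 6.75, 6.89 and 7.04 with Pd, and 6.47, 6.60 and 6.38 with PIM-Pd. The PIM-Pd arrays lay below all others, and the Pd arrays lay below the Control range by a margin that was near 0 in experiment 3. The change with PIM-Pd was -0.75 ± 0.12, or 0.593 times the Control level (interval 0.495 to 0.712, adjusted p = 0.00133). The experiments gave -0.75, -0.84 and -0.67. With Pd the change was -0.34 ± 0.12 (adjusted p = 0.141), and with PIM it was -0.10 ± 0.12 (adjusted p = 0.930). Within each experiment the PIM-Pd change of MXI1 differed from that of MYC by -0.04, 0.05 and 0.27 on the log2 scale. With Pd the differences were wider, at -0.29, -0.001 and 0.59.

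MXD4, a repressor of the same family, moved the opposite way. Its log2 values were 8.05, 8.45 and 7.96 in Control, 8.60, 9.43 and 8.43 with PIM, 9.01, 8.92 and 8.98 with Pd, and 8.80, 9.05 and 8.83 with PIM-Pd. All Pd and PIM-Pd arrays were above the Control range, whereas the PIM arrays overlapped it in experiment 3. MXD4 rose 1.76-fold with Pd (log2 change 0.82 ± 0.21, interval of the fold 1.30 to 2.39, adjusted p = 0.0319) and 1.67-fold with PIM-Pd (0.74 ± 0.21, interval 1.23 to 2.26, adjusted p = 0.0359). With PIM the change was 0.67 ± 0.21, positive in 3 of 3 experiments, at an adjusted p of 0.667 and an unadjusted p of 0.0058. The spread of MXD4 among the PIM arrays (SD 0.54) was wider than in the other groups (SD 0.05 to 0.26).

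These MXD4 calls did not hold in every fit. They held with the experiment number as a block (limma adjusted p = 0.0101 with Pd and 0.0118 with PIM-Pd). They also held with the compared groups alone (0.00366 and 0.0143), a fit that leaves out the wide PIM arrays. Neither reached a fold change of 2, and both were lost in several fits with 1 array left out. The Pd call did not hold without the Control array of experiment 1 or 3 or without any of the 3 Pd arrays, with adjusted p from 0.0692 to 0.126. The PIM-Pd call did not hold without the Control array of experiment 1 or 3, any of the 3 PIM-Pd arrays or the Pd array of experiment 3, with adjusted p from 0.0514 to 0.144. The direction was positive each time, from 0.72 to 0.96 with Pd and from 0.64 to 0.88 with PIM-Pd on the log2 scale. The MYC and MXI1 calls with PIM-Pd held in all 12 fits with 1 array left out, at adjusted p of up to 0.0132 and 0.00823.

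**Figure D3:**
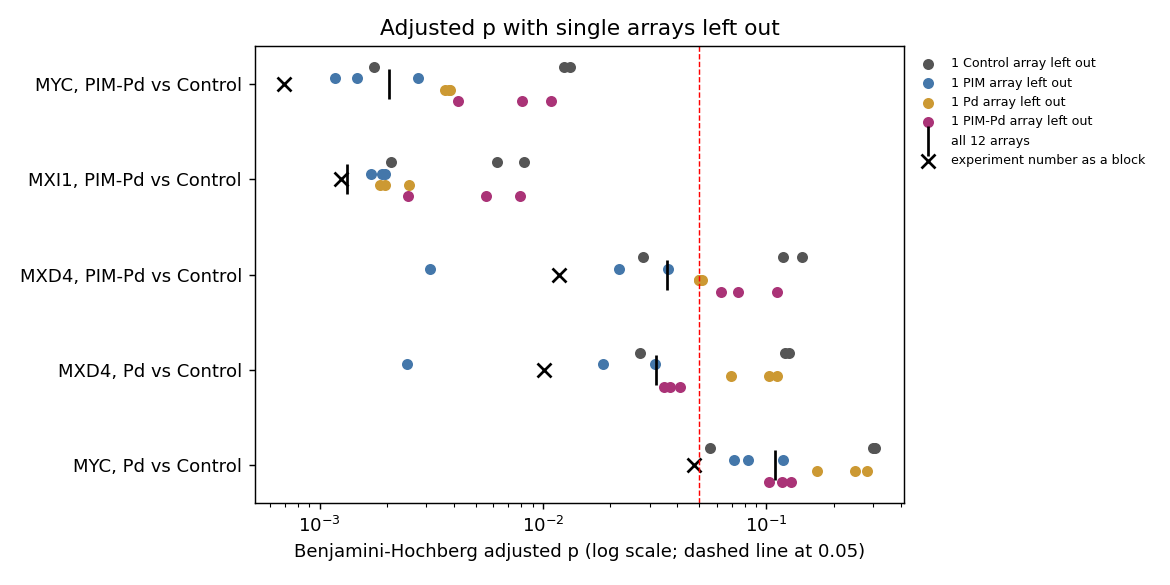
Benjamini-Hochberg adjusted p (log scale) of 5 results with each of the 12 arrays left out in turn (points, coloured by the group of the array left out), with all arrays (vertical bars) and with the experiment number as a block (crosses). The MYC and MXI1 points with PIM-Pd stay left of the dashed line at 0.05, and the MXD4 points lie on both sides of it.

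The remaining repressors did not pass the test in any comparison with Control. MXD1, long described as a gene of differentiating cells, had log2 values of 5.92, 6.21 and 6.30 in Control, from 5.82 to 6.95 with PIM, 6.85, 6.06 and 6.77 with Pd, and 6.66, 6.62 and 6.98 with PIM-Pd. Its PIM-Pd arrays lay above the Control range, while those of PIM and Pd spread more widely. The change with PIM-Pd was 0.61 ± 0.26 (adjusted p = 0.181), and it passed when only the Control and PIM-Pd arrays were fitted (adjusted p = 0.0290), a fit that leaves out the spread within PIM and Pd. MXD3, whose expression is known from cycling cells, had 6.94, 6.80 and 6.77 in Control, 6.95, 6.97 and 6.79 with PIM, 6.37, 6.82 and 6.62 with Pd, and 7.14, 7.20 and 6.96 with PIM-Pd. The MXD3 changes had opposite signs, -0.23 ± 0.13 with Pd (adjusted p = 0.401) and 0.27 ± 0.13 with PIM-Pd (adjusted p = 0.253). MNT, the broadly expressed repressor of the network, had 6.38, 6.39 and 6.16 in Control, 6.39, 6.44 and 6.25 with PIM, 6.04, 5.74 and 5.91 with Pd, and 6.32, 5.68 and 5.93 with PIM-Pd. The Pd arrays of MNT were below the Control range, and those of PIM-Pd overlapped it in experiment 1. The MNT change was -0.42 ± 0.15 with Pd (adjusted p = 0.140) and -0.34 ± 0.15 with PIM-Pd (adjusted p = 0.211). Without the PIM-Pd array of experiment 1, the latter was -0.51 and passed (adjusted p = 0.0363). The MNT change with PIM-Pd passed in only 1 of the 12 fits with 1 array left out, and the adjusted p reached 0.561.

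Counted over the network, PIM-Pd as compared to Control called 3 of 9 genes, against 9.44% of all features. Of these, 1 was higher (MXD4, background 4.42%) and 2 were lower (MYC and MXI1, background 5.02%). Pd called 1 of 9, MXD4, against a background of 5.42% in both directions and 3.48% for higher features. PIM called none of the 9 in limma, and 0% of all features. At an unadjusted p under 0.05, PIM gave 1098 features and 1 network gene, MXD4. The groups did not overlap for 7 of 9 genes with PIM-Pd (24.7% of all features), for 5 with Pd (24.7%) and for 0 with PIM (11%). The median log2 change of the 9 genes was -0.14 with PIM-Pd, 0.04 with Pd and 0.05 with PIM, against 0.01, -0.01 and 0.01 over all features. The 3 comparisons share the Control arrays, so they are given side by side and not set against each other.

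**Figure D4:**
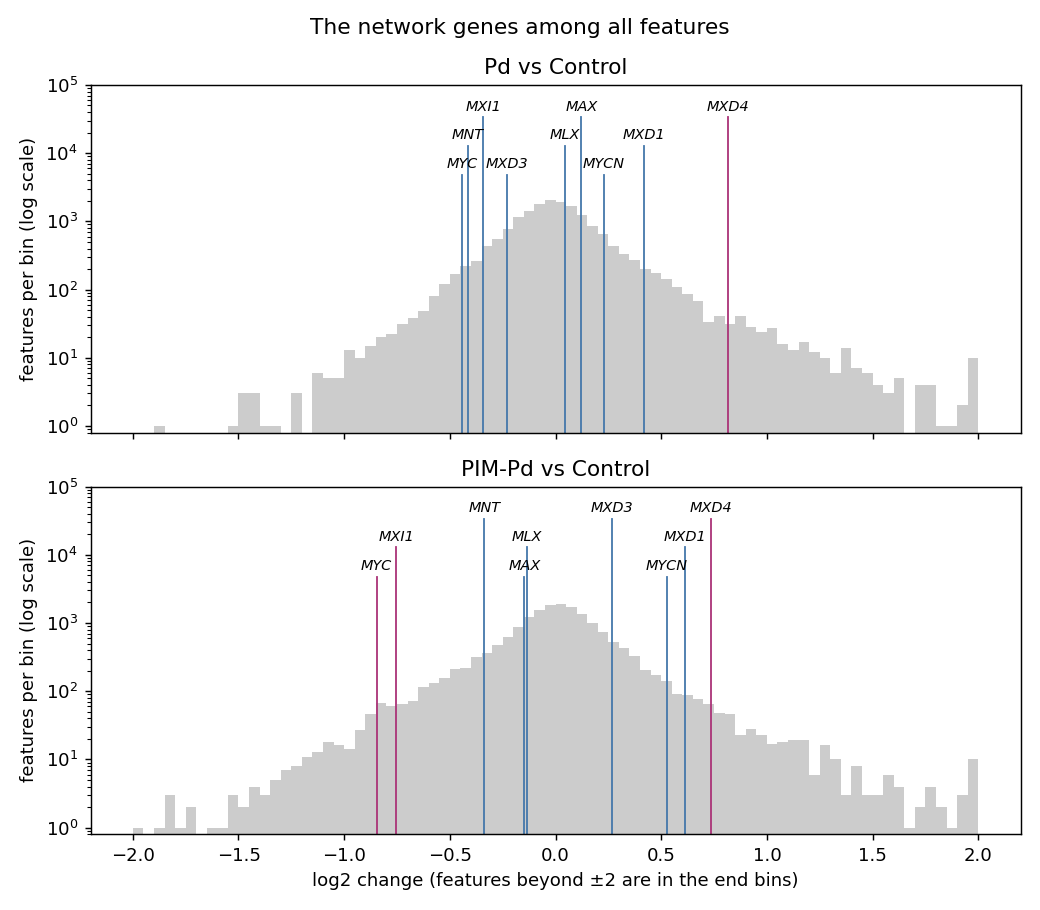
Number of features (log scale) by log2 change with Pd and with PIM-Pd against Control, with the network genes marked (purple where the adjusted p is under 0.05, blue otherwise). With PIM-Pd, MYC and MXI1 lie in the lower tail and MXD4 in the upper tail, at the 1.09th, 1.75th and 98.1th percentiles of all features.

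The question whether adding PIM447 to Pd altered the network was addressed by PIM-Pd as compared to Pd, with 10 h against 15 h of exposure. In limma 0 of the 9 genes were called, as were 0.0791% of all features, and at an unadjusted p under 0.05 there were 1518 features and 3 network genes, MYC, MXI1 and MXD3. MYC was lower by a further log2 difference of -0.41 (interval -0.72 to -0.09, adjusted p = 0.453), with -0.54, -0.34 and -0.33 in the 3 experiments. MXI1 gave -0.41 (interval -0.67 to -0.15, adjusted p = 0.326), with -0.28, -0.29 and -0.66. MXD3 gave 0.50 (interval 0.23 to 0.77, adjusted p = 0.213), with 0.77, 0.38 and 0.35. These 3 genes had the same sign in every experiment and ranges that did not overlap, as did 5 of the 9 in all, with MAX and MLX, against 14.5% of all features. MXD4 differed by -0.08 (interval -0.52 to 0.36), so its level in the PIM-Pd cells was not distinguishable from that in Pd cells.

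PIM-Pd as compared to PIM, 10 h against 24 h, called 2 of 9 genes, against 5.66% of all features, and both were lower (background 2.71%). MYC fell by 0.81 on the log2 scale (0.572 times the PIM level, interval 0.460 to 0.711, adjusted p = 0.0044). MXI1 fell by 0.66 (0.634 times, interval 0.529 to 0.761, adjusted p = 0.00514). MYC, MLX and MXI1 had no overlap between the groups, 3 of 9 genes against 17.8% of features. MXD4 differed by 0.07 (interval -0.37 to 0.51). MNT had a difference of -0.38 (adjusted p = 0.179), or -0.56 (adjusted p = 0.0315) without the PIM-Pd array of experiment 1. MYCN had 0.50 (adjusted p = 0.122), or 0.67 (adjusted p = 0.0402) without the PIM-Pd array of experiment 2. MXD1 had 0.49 (adjusted p = 0.365), which became 0.84 (adjusted p = 0.0349) without the PIM array of experiment 3. MNT, MYCN and MXD1 each passed in only that 1 of the 12 fits with 1 array left out. The adjusted p reached 0.504 for MNT, 0.360 for MYCN and 0.733 for MXD1.

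Departure from additivity, the PIM-Pd change less the sum of the PIM and Pd changes on the log2 scale, was called for 0 of 9 genes in limma and for 0.0169% of all features. At an unadjusted p under 0.05 there were 1033 features and 2 network genes, MXD3 and MXD4. For MXD4 the PIM and Pd changes of 0.67 and 0.82 stood beside 0.74 with PIM-Pd, a departure of -0.75 (interval -1.37 to -0.12, adjusted p = 0.816) that was negative in all 3 experiments, at -0.77, -0.85 and -0.62. For MXD3 the departure was 0.43 (interval 0.05 to 0.81, adjusted p = 0.840), positive in 3 of 3. For MYC it was -0.37 (interval -0.81 to 0.08, adjusted p = 0.916), negative in 3 of 3, and for MXI1 it was -0.31 (interval -0.69 to 0.06, adjusted p = 0.916).

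All the repressors pair with MAX, as MYC does. The change of MXD4, the repressor called higher, was set against that of MYC within each experiment. The MXD4 change minus the MYC change was 1.45, 1.49 and 1.80 with PIM-Pd (mean 1.58 ± 0.19 SD), 1.13, 1.02 and 1.62 with Pd (1.26 ± 0.32), and 0.59, 1.15 and 0.37 with PIM (0.71 ± 0.40). This pair was chosen after its values were seen, so the sign of the differences was fixed by the choice and is no result, and the 3 treatments share the Control arrays. The differences describe unequal change of the 2 genes, not their relative abundance. For MXI1, the repressor called lower, the difference from MYC was 0.09 ± 0.16 (mean ± SD) with PIM-Pd. It was 0.10 ± 0.45 with Pd and -0.06 ± 0.01 with PIM. The other repressors were not compared in this way, and competition for MAX was not tested.

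The features most like a network gene were found by the root mean square difference of their 12 log2 values, each taken from the gene's own Control mean. Only the 1909 features that the study itself called changed carry a symbol here, so neighbours could be named from these alone. For MYC they were ATP2A2, the calcium pump of the endoplasmic reticulum (0.130), the kinase gene MAP3K21 (0.131) and TRAP1, a mitochondrial chaperone (0.140), which were also the 3 closest of all 17709 other features, whose median was 0.533. For MXI1 they were CYC1, the cytochrome c1 of respiratory complex III (0.0491), AUTS2 (0.0920) and the cancer-testis antigen MAGEA1 (0.110), again the 3 closest of all. CYC1 changed by -0.13 with PIM, -0.35 with Pd and -0.75 with PIM-Pd, beside -0.10, -0.34 and -0.75 for MXI1. For MXD4 the nearest named features were ZNF862 (0.220), SEMA5A (0.230) and the autophagy receptor gene NBR1 (0.235), and for MXD1 they were ZNF226 (0.178), XPNPEP3 (0.202) and MDM4, a p53 regulator (0.215).

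Genes that work with or downstream of the network were taken from lists of symbols. Since only features that the study called changed on these same arrays carry a symbol, the matched genes are no independent evidence of direction and the lists cannot be counted as wholes. Of 35 genes known to be induced by MYC, 18 were matched. Because the matching kept only genes already called changed, their counts say nothing about the list. With PIM-Pd all 18 passed and were lower (5.02% of all features), with Pd 6 did (1.94%), and with PIM 0 did in limma, with medians of -0.89, -0.46 and -0.21 on the log2 scale. The PIM-Pd count ranged from 14 to 18 with 1 array left out. The Pd count ranged from 2 to 7 and was 2 without the Control array of experiment 1 or the Pd array of experiment 1 or 3, and 3 without the Control array of experiment 3 or the Pd array of experiment 2. The 5 with the smallest p were CCND2 (cyclin D2, 0.476 times the Control level with PIM-Pd, adjusted p = 4.6e-05), TFRC (the transferrin receptor, 0.377 times, adjusted p = 5.0e-05), SRM (spermidine synthase, 0.517 times), HSPD1 (the mitochondrial chaperonin, 0.594 times) and WDR43 (a ribosome biogenesis factor, 0.533 times), the last 3 at an adjusted p of 3.97e-04. With Pd the same 5 genes stood at 0.721, 0.586, 0.715, 0.698 and 0.690 times the Control level, all past the threshold.

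Of 13 MYC cofactors, 3 were matched, again only through the study's changed genes, so that their passing is largely built in. The 3 fell with PIM-Pd (2 to 3 with 1 array left out) and none passed with Pd, against 9.44% and 5.42% of all features in either direction. HCFC1, a chromatin-bound cofactor, changed by -0.58 (adjusted p = 0.00924), WDR5, which helps recruit MYC to chromatin, by -0.59 (adjusted p = 0.0104), and RUVBL1, an ATPase of chromatin complexes, by -0.79 (adjusted p = 0.0229). HDAC1, a deacetylase of the SIN3 complexes and the only match among 8 corepressor genes, changed by -0.44 (adjusted p = 0.0808). Of 17 MYC-repressed genes 3 were matched in the same way, and the count past the threshold with PIM-Pd ranged from 1 to 3 with 1 array left out, being 1 without the Control array of experiment 1. CDKN1A, which encodes the cell cycle inhibitor p21, rose 1.54-fold with PIM-Pd (adjusted p = 0.0140) and ITGB1, the integrin beta-1 chain, rose 1.71-fold (adjusted p = 0.00815), whereas CCND1, whose product is cyclin D1, fell to 0.650 times the Control level (adjusted p = 0.0172). With PIM the change of CDKN1A had the other sign, at -0.59 (adjusted p = 0.666). Of 2 listed targets of MondoA-MLX, only TXNIP was matched, again through the study's changed genes. TXNIP, which restrains glucose uptake, rose 3.36-fold with Pd (adjusted p = 0.0116) and 2.72-fold with PIM-Pd (adjusted p = 0.0230). With PIM it changed by 0.26 on the log2 scale (adjusted p = 0.946). Whether MLX had a part in the TXNIP change was not tested. The TXNIP calls did not hold without the Control array of experiment 1, nor without the Pd array (Pd) or the PIM-Pd array (PIM-Pd) of experiment 3. MLXIP, which encodes MondoA, changed by 0.39 with Pd (adjusted p = 0.0668) and 0.33 with PIM-Pd (adjusted p = 0.0944). None of the 14 genes listed for MYC turnover was matched.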

How the data were processed

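RNA from 12 cultures of MM.1S cells was hybridized by the authors to Clariom S human arrays. The deposited values are log2 expression, which the authors obtained by RMA (background correction, quantile normalization and summarization) in oligo 1.44.0 under R 3.5.0, with probes regrouped by Ensembl gene. The genome build is not given in the sources used here. Quantile normalization removes any change shared by all genes. The authors' test was SAM, which was not run here.

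The 17710 features were fitted with limma 3.58.1 in R 4.3.3 (lmFit and eBayes) as 4 group means over all 12 arrays, with Benjamini-Hochberg adjustment over all features of a comparison. A feature was called at an adjusted p under 0.05. SE and 95% intervals are from this fit. P-values set a group difference against the spread of arrays within groups, pooled over the 4 groups and drawn by eBayes toward that of other features. The pairing by experiment was not used in this fit. All arrays come from 3 experiments of 1 cell line, and their number limits the precision. The 9 network genes and all lists were chosen with earlier results of these data known.

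Experiment numbers pair the arrays by their label, "pairs". Deviations from group means correlated at a median of 0.10 (-0.10 to 0.30) over the 18 array pairs of the same number and -0.04 over the 36 of other numbers. Symbols of other features came from the 1909 pairs of identifier and symbol that the study gives for its changed genes. The genes named were all 9 members, the 3 nearest named features of MYC, MXD4, MXI1 and MXD1, and from each list up to 5 genes (3 for lists under 8 genes) of smallest p with PIM-Pd against Control. Alternatives were the experiment number as a block, the compared groups alone, median centring, repeated quantile normalization, leaving out the lowest 25% of features, an intensity trend with robust eBayes, a fold change of at least 2, and each array left out.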

Additional observations from a re-analysis of the deposited data

How the results depend on the processing

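PIM against Control, PIM-Pd against Pd and the departure from additivity called 0 network genes under all alternatives run. No gene called in the analysis as reported changed sign under any alternative. With the experiment number as a block, Pd against Control called 2 network genes, MYC and MXD4, instead of 1 (MYC adjusted p = 0.0475), and the block changed no other call of a network gene. When a fold change of at least 2 was also required, 0 network genes were called in Pd, in PIM-Pd and in PIM-Pd against PIM, and 191, 255 and 173 features in all. With 1 array left out, the network counts ranged from 0 to 1 for Pd, from 2 to 3 for PIM-Pd and from 2 to 3 for PIM-Pd against PIM. Counts over all features with 1 array left out ranged from 497 to 1049 for Pd (960 as reported), from 1096 to 1771 for PIM-Pd (1671), from 648 to 953 for PIM-Pd against PIM (1003) and from 2 to 15 for PIM-Pd against Pd (14). Counts under the reported ones by more than 1.5 times came without the Control array of experiment 1 (522) or 3 (608) or the Pd array of experiment 1 (520) or 3 (497) for Pd, the Control array of experiment 3 for PIM-Pd, the PIM-Pd array of experiment 3 for PIM-Pd against PIM, and each of 10 arrays for PIM-Pd against Pd, the exceptions being the PIM and PIM-Pd arrays of experiment 2. PIM-Pd against Pd gave 26 features with an intensity trend, 8 with repeated quantile normalization, and 1 either with the compared groups alone or with the fold requirement, and PIM-Pd against PIM gave 455 with the compared groups alone. The departure from additivity could not be fitted on a pair of groups, and it gave 0 to 3 features with 1 array left out. Of the list counts, 25 moved by more than 1.5 times or to or from 0, and 431 did not. With a fold change of at least 2 required, the MYC-induced genes called went from 18 to 6 with PIM-Pd and from 6 to 0 with Pd, the cofactors from 3 to 0 with PIM-Pd, and the MYC-repressed genes from 3 to 0 in both. With the block, HDAC1 passed with PIM-Pd. Array signal over background is not part of the deposited values, so detection of a low gene such as MYCN was not assessed.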
